A study of Mus musculus with 4 samples.

Results

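The genes described are 8 members of the SLC22 family of organic ion transporters in mouse liver, namely Slc22a3, Slc22a4, Slc22a7, Slc22a18, Slc22a26, Slc22a27, Slc22a28 and Slc22a30. They were taken by gene symbol, current or older, from the annotation of the array, which gave 6 of the 8 genes 8 probesets of their own out of 12393 named genes. Slc22a3 and Slc22a28 had no probeset annotated to them alone, so no value is given for either. Livers came from male mice of 12 to 20 weeks fed for 5 days. PPARα-null mice, labelled 129S4/SvJae, received 0.1% Wy14643, a synthetic PPARα agonist, mixed in the food or the normal food, and wild-type mice, labelled 129S1/SvImJ, received the same diets. RNA was pooled within each of the 4 groups and hybridized to 1 Affymetrix MOE430A array per group, so no replicate check exists and no p-value is given. The title of the wild-type Wy14643 array names the agonist, but its free-text label names control conditions, and the title was followed throughout. The substrain labels differ between the genotypes, so genotype and substrain cannot be told apart.

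SLC22 proteins span the plasma membrane many times and carry charged small molecules. The organic cation transporters take up amines and cationic drugs. The organic anion transporters take up urate, bile acid and steroid conjugates, prostaglandins and anionic drugs, and the carnitine and zwitterion branch carries carnitine and ergothioneine. In hepatocytes these carriers mostly face the blood, where they set how much of a compound reaches the enzymes of drug metabolism. A row of anion transporter genes on chromosome 19 has multiplied in rodents, and several of its members are expressed mainly in liver or kidney. PPARα is the nuclear receptor for fatty acids and fibrates, which induces the genes of fatty acid oxidation.

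The values are GCRMA intensities, a linear measure of probeset brightness. Background was set at 13.48, the 90th percentile over 70 probesets of 46 genes not expected in liver, and 5 of the 6 measured members exceeded it on all 4 arrays. Ppara itself had 428 on Wy14643 and 326 on the control diet in PPARα-null mice, against 1250.1 and 847 in wild-type mice. Where its probeset lies relative to the deletion is not given in the sources used here. Between 51.7% and 52.5% of the probesets of an array were above background, and with 4 arrays the precision is limited. A 1.5-fold difference was the threshold for counting a gene as higher or lower. The 2 PPARα-null arrays had a standard deviation of log2 ratios of 0.32 over 6782 genes, against 0.86 over 6688 genes for the same diets in wild-type mice. Both are spreads over genes that include any effect of the diet, and neither measures the noise between replicates. All 9 measured hepatocyte markers were above background on every array, and 0 of 7 measured kidney markers were above it on any.

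The main pattern was a lower signal of 4 transporter genes in wild-type mice fed Wy14643. In PPARα-null mice, 1 member, Slc22a30, was lower on Wy14643 (log2 ratio of the diets -0.98), beside 4.47% of 7353 genes above background on at least 1 of these arrays, and 0 were higher, beside 2.31%. The other 4 members above background lay between -0.36 and 0.26. In the wild type, Slc22a26, Slc22a30, Slc22a7 and Slc22a27 were at least 1.5-fold lower on Wy14643, with log2 ratios of -6.22, -2.52, -2.31 and -1.43, beside 16.2% of 7456 genes. There, 0 members were higher, beside 15.2%, and Slc22a18 stood at -0.06. Slc22a4 was below background on all 4 arrays.

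**Figure D1:**
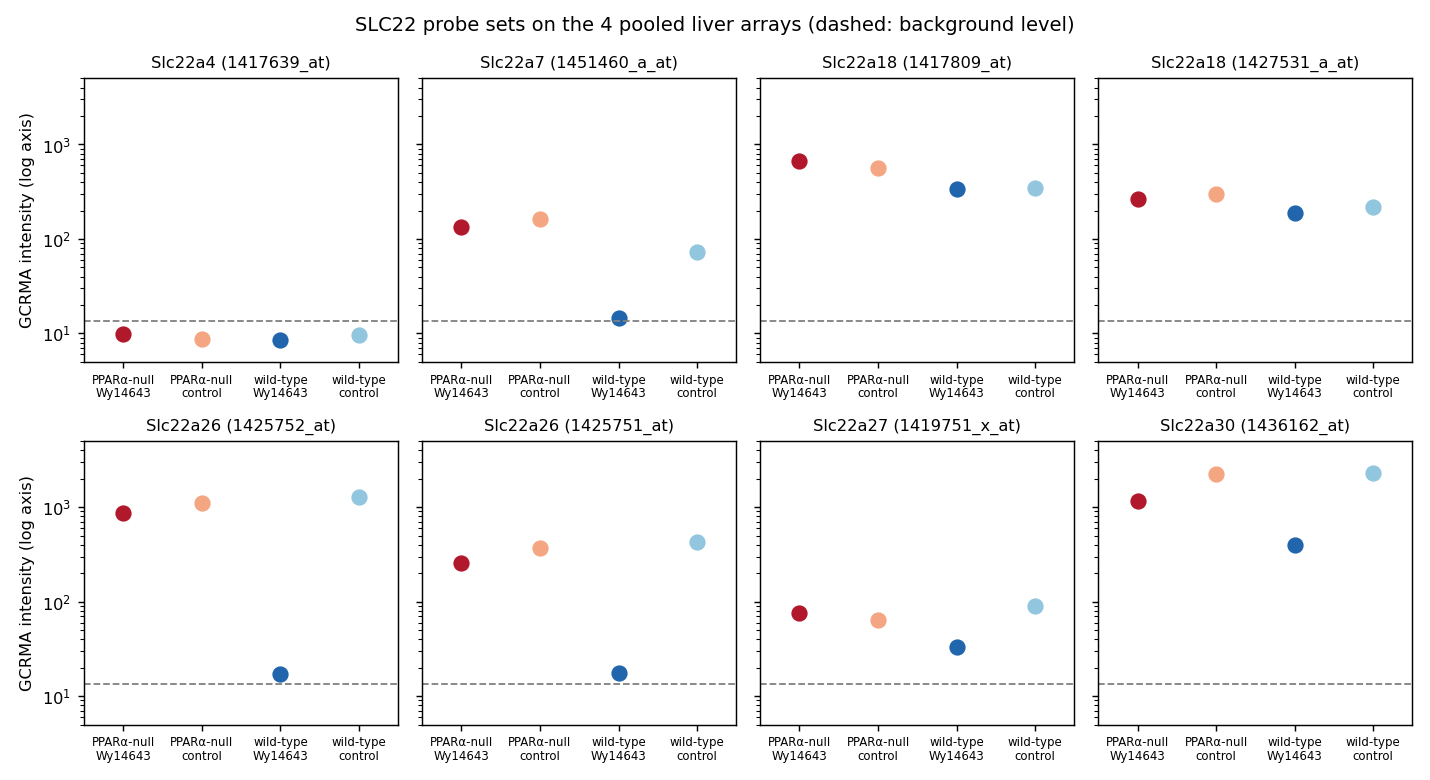
Intensity (log axis) of each of the 8 probesets on the 4 pooled arrays, 1 point per array, with PPARα-null mice in red and wild-type mice in blue and Wy14643 in the darker shade; the dashed line is the background level of 13.48. In both panels of Slc22a26 the wild-type Wy14643 point lies just above that line, at 17.07 and 17.41, and the 3 other points lie between 254.6 and 1268.3.

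Slc22a26 encodes an organic anion transporter of the rodent cluster on chromosome 19. Its brighter probeset had an intensity of 872.7 on Wy14643 and 1117.2 on the control diet in PPARα-null mice, and of 17.07 on Wy14643 and 1268.3 on the control diet in the wild type. The wild-type Wy14643 array thus stood alone, and the other 3 arrays lay within 1.5-fold of each other. The dimmer probeset, which was designed from the same transcript, had 254.6 and 370.4 in PPARα-null mice on Wy14643 and on the control diet, and 17.41 and 425.3 in wild-type mice on these diets. Both probesets therefore placed the same array low. Under Wy14643, PPARα-null mice had 51.1-fold more Slc22a26 signal than the wild type by the brighter probeset and 14.6-fold more by the dimmer. Between the diets, PPARα-null mice had log2 ratios of -0.36 by the brighter and -0.54 by the dimmer probeset, under the threshold. Within the wild type, the Wy14643 signal was 74.3-fold below that of the control diet by the brighter probeset and 24.4-fold below it by the dimmer. Only 3 of 7456 genes had a lower wild-type ratio of the diets than the brighter probeset. For the dimmer the count was 15, which includes Slc22a26 itself by its brighter probeset. On the control diet the genotypes differed by log2 ratios of -0.18 and -0.20, PPARα-null over wild-type.

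The wild-type Wy14643 values of Slc22a26 lay close to background. Among the 280 intensities of the genes that set the background, 10 (3.57%) were at or above 17.07, so the size of the fold rests on a value near the floor of the array. With 32 added to every intensity, which damps dim values, the brighter probeset was 26.5-fold lower on Wy14643 within the wild type, and on Wy14643 it was 18.4-fold higher in PPARα-null mice than in the wild type. The dimmer probeset then gave 9.25-fold and 5.80-fold.

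Slc22a30, a neighbour in the same cluster and also an organic anion transporter gene by sequence, had an intensity of 1149.3 on Wy14643 and 2261.4 on the control diet in PPARα-null mice. In wild-type mice it had 402.6 on Wy14643 and 2310.7 on the control diet. The control diet arrays of both genotypes were nearly equal (log2 ratio -0.03, PPARα-null over wild-type), and both Wy14643 arrays were lower, the wild-type one more so. Wy14643-fed PPARα-null mice had 1.97-fold less signal than those on the control diet, and wild-type mice 5.74-fold less. In the PPARα-null comparison of diets, 68 of 7353 genes had a lower ratio. A further probeset is annotated to both Slc22a30 and Slc22a29 and was assigned to neither. It had 28.3 and 28.7 in PPARα-null mice on Wy14643 and on the control diet, and 28.7 and 36.2 in wild-type mice, so that its log2 ratio on Wy14643 in wild-type mice was -0.34. The 2 probesets thus disagreed on whether the 1.5-fold threshold was passed.

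Slc22a27, which lies between these genes, is read by a probeset of a type that may bind transcripts of close relatives. Its intensity was 76.4 on Wy14643 and 63.8 on the control diet in PPARα-null mice, and 33.3 on Wy14643 and 89.7 on the control diet in the wild type. The wild-type Wy14643 array was again the lowest and the wild-type control array the highest. The log2 ratio between the diets was 0.26 in PPARα-null mice and -1.43 (2.70-fold lower) in wild-type mice. On Wy14643 the PPARα-null value was 2.29-fold above the wild-type value. With 32 added, the log2 ratio on Wy14643 in wild-type mice was -0.90.

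Along chromosome 19, Slc22a26, Slc22a27, Slc22a28, Slc22a29 and Slc22a30 follow each other with no other protein-coding gene between them in the RefSeq annotation. Slc22a29, which is not among the 8 genes, had a log2 ratio of the diets of -0.38 in PPARα-null mice and was 1.57-fold lower on Wy14643 in the wild type, also by a probeset that may bind relatives. Slc22a19 and Slc22a8 at the ends of the row were below background on all 4 arrays. Slc22a6, the main organic anion transporter gene of kidney, reached at most 15.3, on the wild-type control array. The measured log2 ratios in wild-type mice thus ran from -6.22 for Slc22a26 (-4.61 by its dimmer probeset) to -0.65 for Slc22a29. The Slc22a26 value rests on an array near background, and the probesets of Slc22a27 and Slc22a29 may bind relatives. A difference in size between adjacent genes can therefore not be told from one between their probesets.

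**Figure D2:**
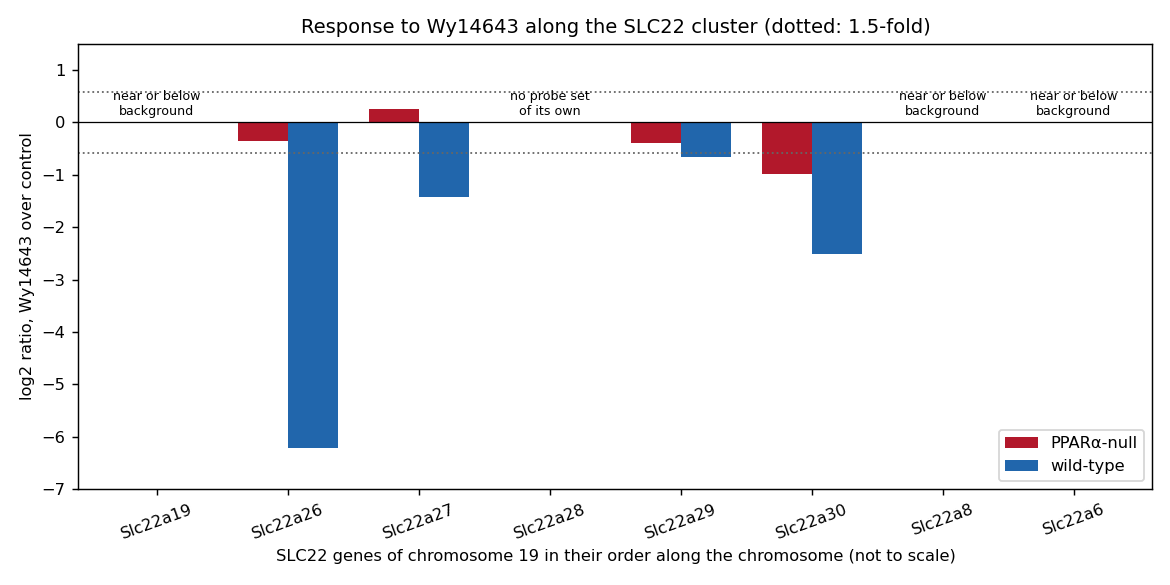
Log2 ratio of Wy14643 over control diet in PPARα-null (red) and wild-type (blue) mice for the SLC22 genes of the chromosome 19 row, in chromosomal order and with 1 array per group; dotted lines mark 1.5-fold. The bars of PPARα-null mice stay between -0.98 and 0.26, and those of wild-type mice reach -6.22 for Slc22a26 and -2.52 for Slc22a30; only genes above background on all 4 arrays have bars, which leaves out Slc22a6, above it on 2.

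The sequences upstream of Slc22a26 and Slc22a30 are shown because these members of the row had the lowest ratios in wild-type mice, and that of Slc22a28 because this gene could not be measured and resembles Slc22a30. Each is the 250 bases before the annotated start, from RefSeq on GRCm38.p6, minus strand, at chr19:7802668-7802917 for Slc22a26, chr19:8405106-8405355 for Slc22a30 and chr19:8131983-8132232 for Slc22a28. Capitals mark TTCNNNGAA, the sequence that STAT proteins bind, in Slc22a26 and GTTAAC, which occurs in many sites of the liver factor HNF1, in the other genes.
Slc22a26: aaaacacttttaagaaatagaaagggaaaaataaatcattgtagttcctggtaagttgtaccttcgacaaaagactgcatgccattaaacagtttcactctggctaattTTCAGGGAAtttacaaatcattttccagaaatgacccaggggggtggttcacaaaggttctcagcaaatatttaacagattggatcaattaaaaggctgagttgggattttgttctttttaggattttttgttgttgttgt
Slc22a30: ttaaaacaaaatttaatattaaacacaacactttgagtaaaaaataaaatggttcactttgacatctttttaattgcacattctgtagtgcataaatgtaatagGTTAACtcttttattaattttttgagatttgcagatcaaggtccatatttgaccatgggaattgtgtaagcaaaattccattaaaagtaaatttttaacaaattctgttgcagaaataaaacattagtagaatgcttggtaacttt
Slc22a28: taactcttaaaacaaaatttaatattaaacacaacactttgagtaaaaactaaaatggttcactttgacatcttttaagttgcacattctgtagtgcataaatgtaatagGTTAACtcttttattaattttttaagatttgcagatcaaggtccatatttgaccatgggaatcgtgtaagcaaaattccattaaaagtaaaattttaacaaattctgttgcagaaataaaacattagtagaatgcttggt
The windows of Slc22a30 and Slc22a28 were identical at 238 of 244 aligned bases (97.5%), and their GTTAAC hexamers lay 146 and 140 bases before the start. On either strand, GTTAAC was found in 2.56% of 32851 such windows and TTCNNNGAA in 7.02%. The exact consensus of the PPAR response element, AGGTCANAGGTCA, was found in none of these 3 windows, on either strand. It was found in 0.0335% of all windows, so its absence from 3 does not show that a response element is lacking. Its hexamer AGGTCA was found in none of the 3 and in 14.0% of all. The window of Slc22a27, which is not shown, held the hexamer AGGTCA once, 119 bases before the start. These matches describe letters in short windows and not sites of binding.

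Slc22a7 encodes Oat2, an organic anion transporter of hepatocytes. Its intensity was 133.1 on Wy14643 and 162.7 on the control diet in PPARα-null mice, and 14.52 on Wy14643 and 72.0 on the control diet in the wild type. Both PPARα-null arrays were thus above both wild-type arrays. The PPARα-null value was 9.16-fold above the wild-type value on Wy14643 and 2.26-fold above it on the control diet. Between the diets, Slc22a7 was 1.22-fold lower on Wy14643 in PPARα-null mice, under the threshold, and 4.96-fold lower in wild-type mice. The wild-type Wy14643 value was close to background, with 22 of the same 280 intensities (7.86%) at or above it. With 32 added, the log2 ratio between the diets was -1.16 in wild-type mice, and that between the genotypes on Wy14643 was 1.83, PPARα-null over wild-type.

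Slc22a18 encodes a cation transporter-like protein whose substrates are poorly known, and it lies in an imprinted domain of chromosome 7. Its brighter probeset had 666.9 on Wy14643 and 565.2 on the control diet in PPARα-null mice, and 334 on Wy14643 and 348 on the control diet in the wild type. The arrays separated by genotype and not by diet. The PPARα-null value was 2.00-fold the wild-type value on Wy14643 and 1.63-fold on the control diet. The dimmer probeset had 264.1 and 302.5 in PPARα-null mice on Wy14643 and on the control diet, and 190.0 and 220.5 in wild-type mice. Its PPARα-null values were also above its wild-type values, but the ratios of 1.39 and 1.37 stayed under the threshold.

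Slc22a4, the ergothioneine transporter gene also called Octn1, had 9.79 on Wy14643 and 8.72 on the control diet in PPARα-null mice, and 8.50 on Wy14643 and 9.73 on the control diet in the wild type. With all of these below background, no fold is given.

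Between the genotypes on Wy14643, all 5 members above background were at least 1.5-fold higher in PPARα-null mice, where 18.0% of 7523 genes were called higher and 16.9% lower. The log2 ratios ran from 1.0 for Slc22a18 to 5.68 for Slc22a26 with a median of 1.51, against a median of 0.02 over all genes. By its dimmer probeset Slc22a18 stayed under the threshold, at 1.39-fold on Wy14643 and 1.37-fold on the control diet. On the control diet, Slc22a7 and Slc22a18 were higher in PPARα-null mice, beside 2.52% of 7232 genes, 0 were lower, beside 2.45%, and the other 3 members lay between -0.49 and -0.03. This comparison shares no array with the one on Wy14643, but the comparison of diets in wild-type mice shares an array with each.

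**Figure D3:**
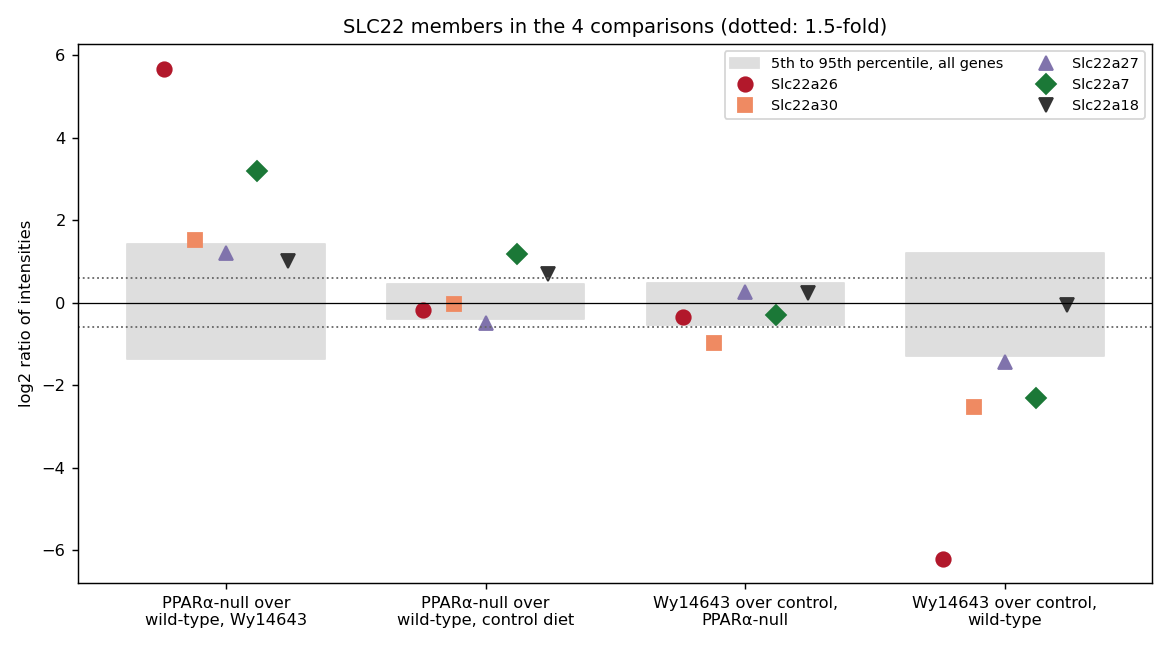
Log2 ratio of the 5 members above background in the 4 comparisons, with the brightest probeset of each gene; grey boxes span the 5th to 95th percentile of all genes above background and dotted lines mark 1.5-fold. Slc22a26 lies farthest outside the boxes, at 5.68 between the genotypes on Wy14643 and at -6.22 between the diets in wild-type mice, and on the control diet Slc22a7 (1.18) and Slc22a18 (0.70) lie above the box and Slc22a27 (-0.49) just below it.

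The log2 ratio of Wy14643 over control diet was larger in PPARα-null mice than in the wild type for all 5 members, by 5.86 for Slc22a26 (4.07 by its dimmer probeset), 2.02 for Slc22a7, 1.69 for Slc22a27, 1.54 for Slc22a30 and 0.30 for Slc22a18 (0.02 by its dimmer probeset). Among 7690 genes above background on at least 1 array, Slc22a26 had the rank of 7 from the highest, Slc22a7 156, Slc22a27 218, Slc22a30 266 and Slc22a18 2208. These differences were not tested, since no group has a replicate. Both values for Slc22a18 were below 0.45, the standard deviation of the PPARα-null pair times the square root of 2. This scale takes the wild-type pair to have the same spread, and it is not a replicate spread. Its place in the count of 5 is therefore uncertain.

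Markers of hepatocytes and of other liver cells also differed between the diets. Over all genes, 4.47% of 7353 were lower and 2.31% higher on Wy14643 in PPARα-null mice. For the wild type these shares were 16.2% and 15.2% of 7456. In PPARα-null mice, 0 of 9 measured hepatocyte markers were lower on Wy14643 (median log2 ratio 0.02), and their summed intensity was 82993.8 on Wy14643 and 83151.3 on the control diet. In the wild type, 4 of the 9 were lower, beside 16.2% of 7456 genes, with a median of -0.58. These markers did not move together, and ran from -1.55 for Tat to 0.34 for Alb, with Apoa1 at 0.03 and Apob at 0.04. The summed intensity was 72734.4 on Wy14643 and 82797.2 on the control diet. Markers of Kupffer cells, the macrophages of liver, were lower on Wy14643 in both genotypes, 8 of 8 in PPARα-null and 7 of 8 in wild-type mice, with sums of 667.3 and 1306.6 on Wy14643 and on the control diet in PPARα-null mice and of 433.1 and 1096.1 in wild-type mice. Stellate cell markers were higher on Wy14643 for 3 of 7 in PPARα-null mice (sums of 2199.1 on Wy14643 and 1674.9 on the control diet). In the wild type, 3 of 6 were lower (815.9 and 1540.6). Only Reln and Pdgfrb passed the threshold each time, in opposite directions. Col3a1 had log2 ratios of the diets of 0.79 (PPARα-null) and -0.18 (wild type), and Dcn of 0.27 and -1.01. Hgf stayed under the threshold each time, at -0.235 and -0.51, and was below background on the wild-type Wy14643 array, at 11.8. Dcn made up most of each sum, with 584.9 and 1181.7 in the wild type. Of 8 markers of sinusoidal endothelial cells, 5 were lower on Wy14643 in PPARα-null mice (808.2 and 1691.4) and 3 in the wild type (899.5 and 1581). Neutrophil markers were higher on Wy14643 for 3 of 4 in PPARα-null mice (264.1 and 67.5) and for 0 of 2 in the wild type (60.9 and 60.3). Lists for cholangiocytes, lymphocytes and adipocytes had at most 1 marker above background between the diets of a genotype. The part of these shifts in the transporter values was not tested, and in whole liver fewer cells of a type and less RNA per cell cannot be told apart.

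Of 17 other SLC22 genes listed, 12 had a probeset of their own and 5 were above background on at least 1 array. Slc22a5 encodes the plasma membrane carnitine transporter, also called Octn2, and its wild-type Wy14643 array was the highest of the 4. It had 23.1 on Wy14643 and 18.0 on the control diet in PPARα-null mice, and 1047.5 on Wy14643 and 48.6 on the control diet in the wild type, a 21.5-fold higher signal on Wy14643 within the wild type. Slc22a23 and Slc22a29 had log2 ratios of -0.33 and -0.30 for PPARα-null over wild-type mice on Wy14643, and Slc22a6 and Slc22a12, at the background level, 0.14 and 0.07.

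Among 26 organic ion transporters outside the family, 22 had a probeset of their own and 18 were above background. Between the genotypes on Wy14643, PPARα-null mice had 9 of the 18 higher, beside 18.0% of 7523 genes, and 4 lower, beside 16.9%. The median log2 ratio was 0.62. Between the diets in PPARα-null mice, 2 of the 18 were higher on Wy14643, beside 2.31% of 7353 genes. Another 2 were lower, beside 4.47% (median of the 18, 0.04). In the wild type, 4 were higher, beside 15.2% of 7456 genes, and 10 lower, beside 16.2% (median -0.80). Of these 18 genes, Slco1a4, Slco1a1 and Slc29a1 had the highest ratios for PPARα-null over wild-type mice on Wy14643, at 5.62, 4.29 and 2.56. Slco1a4, a carrier of bile acids and other anions, had 945.9 on Wy14643 and 826.3 on the control diet in PPARα-null mice, and 19.2 and 486.6 in wild-type mice, with the same array near background as for Slc22a26. The efflux pump genes Abcg2 (-3.38) and Abcb1b (-2.0) and the bile acid uptake gene Slc10a2 (-1.40) had the lowest ratios.

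**Figure D4:**
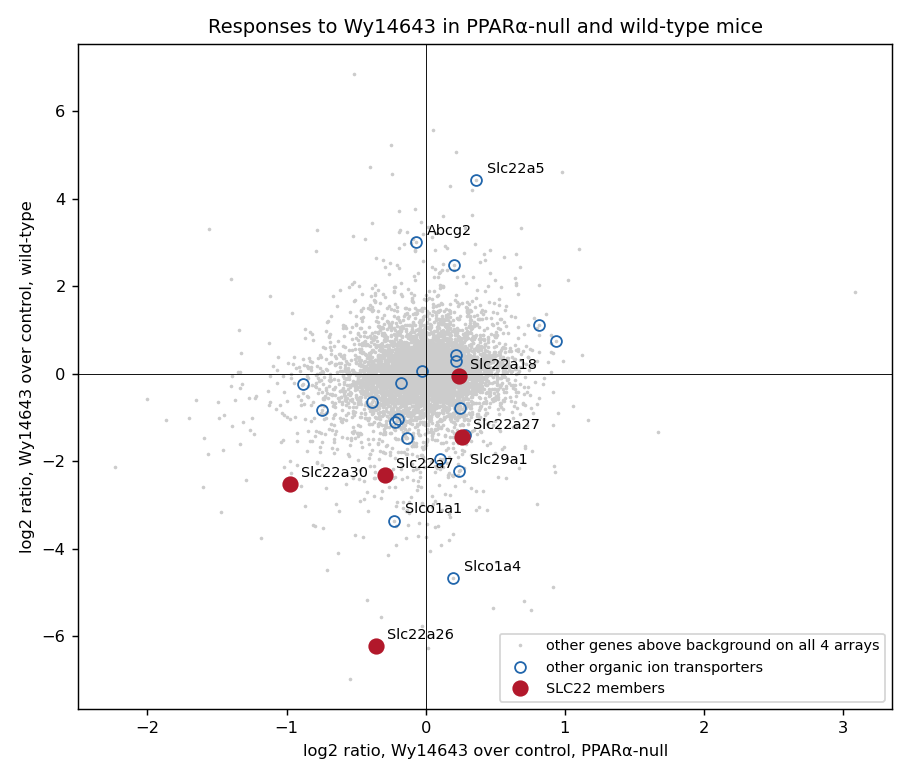
Horizontal axis, log2 ratio of the diets (Wy14643 over control) in PPARα-null mice; vertical axis, the same ratio in the wild type. Each of the 6455 points is a gene above background on all 4 arrays, the 5 SLC22 members are red and 21 other organic ion transporters are blue circles. Slc22a26 (-0.36 horizontally, -6.22 vertically) lies far below the centre, and Slc22a5 (0.36, 4.43) far above it.

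Of 12 listed liver transcription factor genes, 11 were measured. In PPARα-null mice, 0 of 10 above background were called in either direction between the diets, beside 2.31% of 7353 genes higher and 4.47% lower. In the wild type, 1 of 11 was higher on Wy14643, beside 15.2% of 7456 genes, and 3 were lower, beside 16.2% (median log2 ratio -0.35). The higher one was Stat5a (1.20), which was above background only on the wild-type Wy14643 array, at 25.8. Its relative Stat5b, above background on all 4 arrays, stood at -0.06 in PPARα-null mice and at -0.30 in the wild type. The lower ones were Cebpa, Foxa2 (-1.20) and Onecut1 (-0.83). Hnf4a, a known activator of many liver genes, stood at -0.57 in PPARα-null mice and at -0.54 in the wild type. Cebpa, which maintains hepatocyte gene expression, stood at 0.31 in PPARα-null mice and at -1.39 in the wild type.

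The genes whose pattern over the 4 arrays was most like each member were found by the root mean square difference of log2 values, each gene taken relative to its own mean, among 7690 genes. For Slc22a26 these were the sulfotransferase gene Sult1a1 (0.20), the retinol dehydrogenase family gene Rdh16f2 (0.26) and the aldehyde oxidase gene Aox3 (0.33). Sult1a1 had 4096.9 on Wy14643 and 4176.9 on the control diet in PPARα-null mice, and 80.2 and 4357.6 in wild-type mice, again with the wild-type Wy14643 array alone. Slc22a7 was nearest to the complement gene C2 (0.14), Mmd2 (0.14) and Rgs16 (0.16), a regulator of G protein signalling, and these had log2 ratios of 0.91, 0.81 and 1.17 on the control diet, PPARα-null over wild-type. The nearest to Slc22a30 were Cd82 (0.14), Gstm6 (0.15) and Parp12 (0.15), to Slc22a27 the interferon-induced genes Iigp1 (0.08) and Helz2 (0.09) and the metallothionein gene Mt1 (0.09), and to Slc22a18 the protein S gene Pros1 (0.04), Gtf3c4 (0.05) and Tm4sf4 (0.10). No member was among the 3 nearest genes of another. The member most like Slc22a26 was Slc22a7, with a difference of 1.41, and 75 genes were nearer. The values are a description over 4 arrays that share normalization.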

How the data were processed

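Liver RNA, pooled within each of 4 groups, was hybridized to 4 Affymetrix MOE430A arrays. The deposited values are intensities from GCRMA, a background correction, quantile normalization and probeset summary that the authors ran (the submitters' processing notes name version 2.20). Which arrays entered that run is not given in the sources used here. The values run from 1.55 to 31270.17, so they are linear, and log2 ratios were taken from them. Of 22690 probesets, 64 controls were left out, 20380 of the rest carried 1 gene symbol, 691 several and 1555 none. The probeset with the highest mean log2 intensity stood for a gene. The methods call pooled arrays by a 1.5-fold threshold, which was kept, on genes above background on at least 1 array of the 2 compared. The sources differ on how many mice made up a pool. For the wild-type array labelled Wy14643 in its title, the free text names control conditions, and the title was followed. All members were named, together with the 3 other transporters at each end and the 3 nearest genes per member; further genes named were chosen after their values were seen. Members and lists were chosen with earlier results of these data known. The calculation was tested on simulated data. Promoters came from RefSeq (GRCm38.p6), which held no entry for Slc22a7. The alternatives were a floor, 32 added, 2 centrings, cyclic loess, other probesets, other background rules and a 2-fold threshold. Python 3.11.15 (numpy 2.4.6, pandas 2.3.3, matplotlib 3.10.9) and R 4.3.3 with limma 3.58.1 were used.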

Additional observations from a re-analysis of the deposited data

Results flagged for a closer look

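For Slc22a27 and Slc22a18, the log2 ratio of Wy14643 over control diet had opposite signs in the genotypes. Slc22a27 stood at 0.26 in PPARα-null mice and at -1.43 in the wild type, a difference of 1.69, and Slc22a18 at 0.24 in PPARα-null mice and at -0.06 in the wild type, a difference of 0.30. Neither difference was tested, since each group is 1 array. The PPARα-null ratios of both genes and the wild-type ratio of Slc22a18 were smaller than 0.32, the standard deviation of the PPARα-null pair. A reversal of sign is therefore not shown for either gene. The difference for Slc22a18 was also below 0.45, that deviation times the square root of 2, and the difference for Slc22a27 was above it. The dimmer probeset of Slc22a18 had negative ratios in both genotypes, -0.20 in PPARα-null mice and -0.21 in the wild type.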

How the results depend on the processing

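No single value that was called changed sign under the alternatives run. Of 88 counts of members recomputed, 85 stayed within 1.5 times, but counts that were 0 in the main run could not fall. The exceptions were 0 members lower on Wy14643 in PPARα-null mice at a 2-fold threshold, in place of 1, and 1 member higher in control-fed PPARα-null mice relative to the wild type, in place of 2, both at a 2-fold threshold and with the median of the probesets of a gene; a stricter threshold can only lower a count, and the median drew on the dimmer probeset of Slc22a18. Of the single values recomputed, 193 moved by less than the spread and 12 by more, 9 of them with 32 added and 3, all of Slc22a26, with the median of its probesets. The spread was the standard deviation of the PPARα-null pair, 0.32, for a log2 ratio, and that value times the square root of 2, or 0.45, for a difference of 2 ratios. Both centrings, cyclic loess and a floor at background moved none by more than this. For the 5 members above background on all 4 arrays, the floor could move nothing. Requiring signal above background on both arrays could not drop any of them either. The centrings had little room, since array medians of log2 intensity lay between 6.12 and 6.18 for probesets above background. For all probesets these medians lay between 3.83 and 3.86. The floor set the difference for Slc22a4, below background on all arrays, to 0, a move above 0.32 but under 0.45. Leaving out probesets that may bind several transcripts removed the single probeset of Slc22a27, which then had no value. Signal near background limits the size of the ratios of Slc22a26 and Slc22a7 in wild-type mice on Wy14643. With 1 array in each group, none could be left out. No paired analysis was possible because each group holds 1 array.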
